A study of Mus musculus with 5 samples.

Results

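The genes described are those of the cytosolic ribosomal proteins in the mouse retina, 89 of the 33636 genes of the count table. They were taken by name: symbols that start with Rpl or Rps followed by a number, with at most a closing a, x, y or l and further digits, and the symbols Rplp0, Rplp1, Rplp2 and Rpsa, with symbols marked as pseudogenes by -ps left out. Of the 89, 53 are named for the large and 36 for the small subunit, and the annotation calls 83 protein-coding and 6 pseudogenes (Rps4l, Rpl32l, Rps3a3, Rpl6l, Rps3a2 and Rps12l1).

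Retinas came from wild-type male C57BL/6J mice (C57BL6/J in the sample sheet) at postnatal day 42. The right eye had been behind a diffuser goggle for 2 weeks from postnatal day 28, which blurs the image and induces form-deprivation myopia (FDM), and the open left eye of the same animals was the Control. Poly-A RNA-Seq gave 2 FDM and 3 Control libraries. By their numbers, FDM 1 and Control 1 were taken as the eyes of mouse 1. FDM 3 and Control 3 were taken as those of mouse 3. Control 2 has no partner, because the authors left out 1 FDM library for its read duplication. The sample sheet numbers the second FDM library 2, whereas the count table and the paper number it 3, which is used here.

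The cytosolic ribosome makes the proteins encoded in the nucleus. Its small subunit reads the mRNA and its large subunit joins the amino acids, and each holds ribosomal RNA and many different proteins, most of them present in a single copy. Their mRNAs are short and abundant, and many begin with a C followed by further pyrimidines (C or T in the DNA), a 5′ terminal stretch through which the mTOR pathway and Larp1 control their translation. Poly-A RNA-Seq measures the amount of these mRNAs, not their translation.

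The bases around the start are shown for 7 members, because a pyrimidine stretch at the start is a feature that many ribosomal protein mRNAs are known to share. The windows run from 25 bases before to 25 bases from the start listed by RefSeq on GRCm38.p6, so the first part is upstream of the gene and the second lies in the first exon. They are written 5′ to 3′ on the coding strand, and the capitals mark the longest run of a C followed by at least 5 further C or T. They include Rps6 and Rps27 of the small subunit, Rpl11, Rpl12 and Rpl38 of the large subunit, the paralog Rpl22l1, and Rpl3l, the striated muscle paralog of Rpl3, whose window held no such run. With the first base of the listed start as 0, the run begins at -1 in Rps6, -2 in Rps27, 0 in Rpl38, 2 in Rpl12 and 3 in Rpl22l1. In Rpl11 it begins at 14, inside the first exon and cut by the end of the window, so it does not mark the listed 5′ end.
Rps6, chr4:86857343-86857392, minus strand: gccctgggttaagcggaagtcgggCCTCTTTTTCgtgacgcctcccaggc
Rps27, chr3:90213624-90213673, minus strand: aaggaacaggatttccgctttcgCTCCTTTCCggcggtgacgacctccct
Rpl11, chr4:136053369-136053418, minus strand: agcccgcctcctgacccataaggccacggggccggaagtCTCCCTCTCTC
Rpl12, chr2:32961687-32961736, plus strand: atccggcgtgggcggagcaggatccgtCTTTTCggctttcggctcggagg
Rpl38, chr11:114668555-114668604, plus strand: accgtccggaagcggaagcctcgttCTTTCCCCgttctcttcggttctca
Rpl22l1, chr3:28805483-28805532, plus strand: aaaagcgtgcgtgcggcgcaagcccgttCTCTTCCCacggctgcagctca
Rpl3l, chr17:24727801-24727850, plus strand: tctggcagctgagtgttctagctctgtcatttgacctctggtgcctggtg

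RefSeq listed a promoter for 64 of the 89 members. In 40 of them (62.5%) the window held such a run, compared with 35.0% of all 27025 promoters listed and 34.9% of those of tested genes. Over the whole promoter of 300 bases, from 250 before to 50 after the start, the letters CCGGAAG, the core of an ETS factor motif, stood on either strand in 25 members (39.1%) and in 9.12% of all promoters, or 15.7% of those of tested genes. The letters TATAAA on either strand stood in 7 members (10.9%), below the 14.2% of all promoters and above the 7.87% of those of tested genes. These are matches of letters at listed starts, and none of them was tested as a site.

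Of the 89 members, 83 had more than 10 counts in at least 2 libraries and were tested. Of these, 81 had more than 400 counts in every library. Levels were compared between genes in TPM, a unit that corrects for transcript length and library size, computed here from the counts and the median length of each gene's annotated transcripts. On this scale Rpl13a, a large subunit protein, was highest with a mean over the 5 libraries of 1148 TPM, followed by Rplp1, an acidic protein of the stalk, and Rpl3, a protein near the peptidyl transferase centre, with 867 each, which cannot be placed in order. The middle member of those tested stood at 297 TPM.

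The lowest of the well-counted members was Rpl12, a protein at the base of the stalk, with 15.9 ± 1.05 TPM in FDM (SD, n = 2) and 16.9 ± 2.12 in Control (SD, n = 3). Rpl27 stood at 29.5, the paralog Rps27l at 34.3 and Rps20, a protein of the head of the small subunit, at 40.9 TPM. Several low values go with properties of the annotation: the median transcript of Rps20 is 3706 nucleotides long, against 704 for the median well-counted member, and 88.3% of the reads of Rpl27 and its named copies were assigned to the copies.

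**Figure D1:**
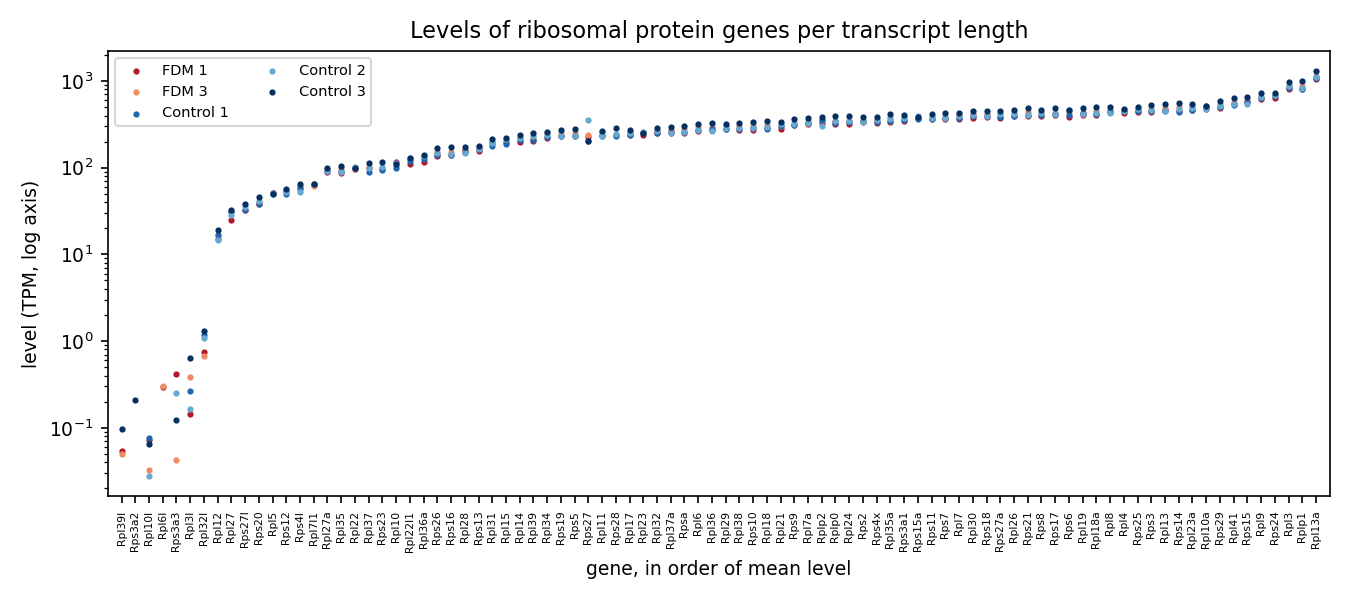
Level of each member per transcript length, in each of the 5 libraries (one colour each), in TPM on a log axis, with genes in order of their mean. Values of 0, and Rps12l1, which was at 0 throughout, cannot be drawn. From Rpl12 upwards the genes span 16.5 to 1148 TPM and the 5 libraries of a gene lie close together, while a few paralogs and pseudogenes lie at or below 1.

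The first question was whether form deprivation changed these mRNAs. In the fit of all 5 libraries with edgeR's quasi-likelihood test, 0 of 83 members passed an unadjusted p of 0.05, the threshold the study used, and 1.61% of all genes tested passed it (281 of 17432). The member with the lowest p was Rpl32l, with 8 to 16 counts a library, and every member had an edgeR adjusted p of 1.0, which is not repeated for each gene below. DESeq2 also called 0 members. limma on the authors' normalized counts called 1, Rpl12, with a log2 fold change of -0.30, while 300 of all 17432 genes passed in that fit. No member had an adjusted p under 0.05 with any of these tools.

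The fold changes were small and mostly of one sign. Of the 83 members, 77 had a log2 fold change (FDM over Control) below 0, against 55.6% of all genes, and the median was -0.075, compared with -0.013 over all genes. Both subunits had like values, with a median of -0.070 and 46 of 50 below 0 for the large subunit and -0.076 and 31 of 33 for the small. Among the 81 well-counted members the log2 fold change ran from -0.14 (Rps27) to 0.04 (Rps4l), and its standard error from 0.077 to 0.22 with a median of 0.10, so that most members lay within a single standard error or a little more of 0. The median rested on the library Control 3: without it the median was 0.0076 and 36 of 83 members were below 0. Leaving out FDM 1 gave a median of -0.016 with 59 of 83 below 0, and leaving out FDM 3 gave -0.13.

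**Figure D2:**
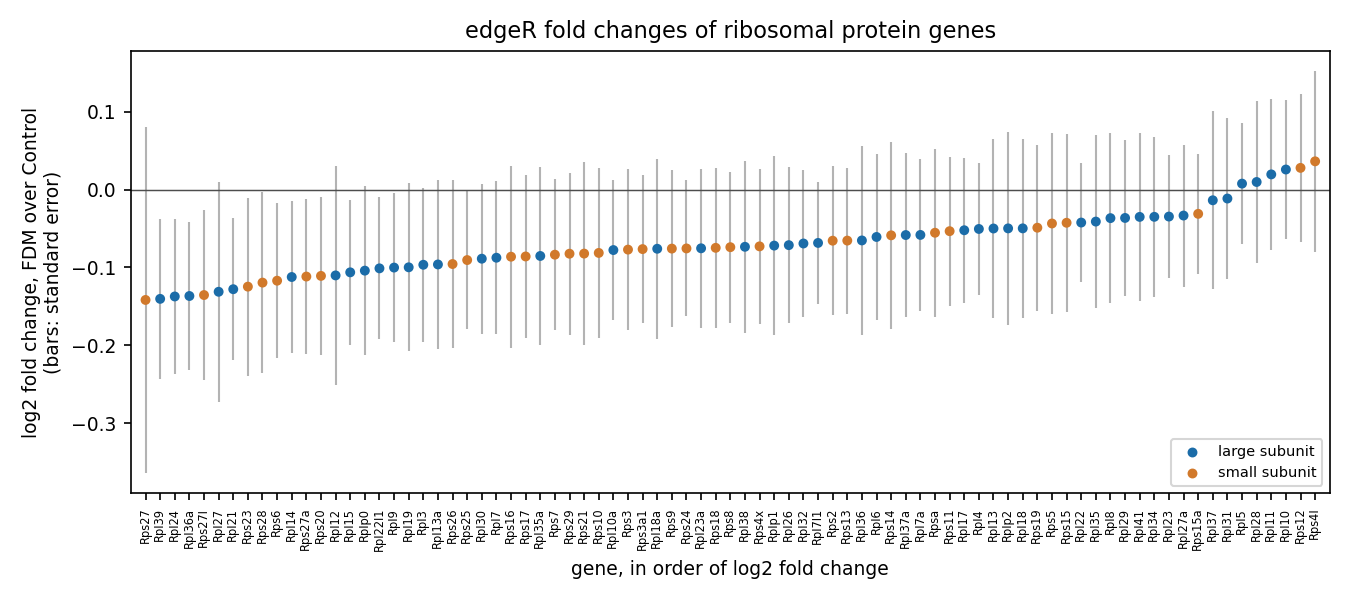
edgeR log2 fold change of FDM over Control with its standard error for the 81 well-counted members, in order of the fold change, coloured by subunit. Values run from -0.14 to 0.04, most lie below 0, and both subunits are mixed along the order.

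The libraries showed how the members moved. For each member, the log2 CPM (counts scaled to one library size with TMM factors) was set against the gene's mean over the 5 libraries. The median deviation of the 81 well-counted members was 0.17 in Control 3, -0.056 in Control 2 and -0.029 in Control 1, against 0.015 in FDM 3 and -0.096 in FDM 1, while the medians of all 10500 well-counted genes lay between -0.016 and 0.011. The lowest library was thus an FDM eye and the highest a Control eye, but FDM 3 lay above Control 1 and Control 2, so the groups overlapped. Control 3 was the highest library for 77 of 83 members, compared with 20.2% of all genes, and FDM 1 the lowest for 50, compared with 16.7%.

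The members also kept close to each other. In Control 2 the middle 90% of the members spanned 0.19 on the log2 scale, against 0.56 for all well-counted genes, and in FDM 3 the same widths were 0.11 and 0.17. The genes compared were not matched for transcript length or level. In Control 2 other protein-coding genes had a median deviation of -0.055 from 500 to 1000 nucleotides and of 0.12 over 5000. All members of a library share its depth and RNA, and are not independent measurements of it.

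**Figure D3:**
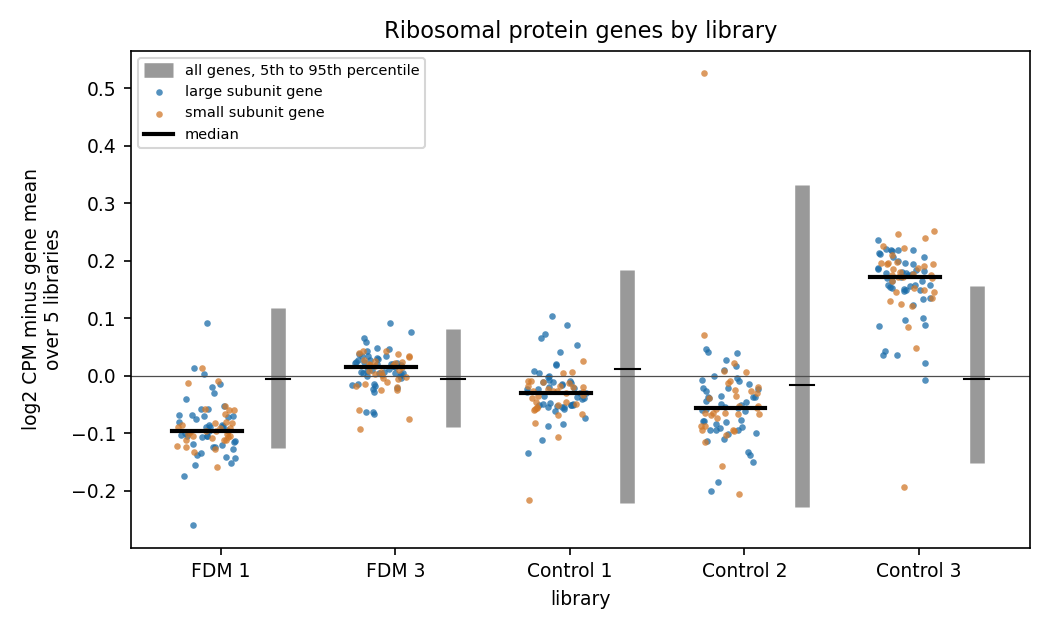
Deviation of each of the 81 well-counted members from its own mean over the 5 libraries (log2 CPM), with large subunit genes in blue, small subunit genes in orange and a thick line at their median; the grey bar is the range from the 5th to the 95th percentile of all well-counted genes, with a thin line at their median. The members of Control 3 sit around 0.17 and those of FDM 1 around -0.096, and the point far above the others in Control 2 is Rps27.

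Summed over all 89 members, ribosomal protein genes took 1.11% (FDM 1) and 1.21% (FDM 3) of the counts of the deprived eyes and 1.14% (Control 1), 1.15% (Control 2) and 1.33% (Control 3) of those of the open eyes. FDM 3 again lay between the Control libraries. The means were 1.16% ± 0.069 in FDM (SD, n = 2) and 1.21% ± 0.10 in Control (SD, n = 3). The difference of -0.050 percentage points was smaller than the spread of the Control libraries (exact permutation test, two-sided, p = 0.80). This p doubles the smaller one-sided p, and so computed it cannot be less than 0.20 for 2 against 3 libraries. The difference was 0.0089 percentage points without Control 3, -0.0014 without FDM 1 and -0.099 without FDM 3. In such bulk samples a lower share of cells rich in these mRNAs and less of the mRNA per cell cannot be told apart.

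The second question was how the eyes of each mouse differed. In mouse 1, 70 of 83 members were lower in the FDM eye, with a median log2 difference of -0.069, compared with -0.020 over all genes. In mouse 3, 80 of 83 were lower, with a median of -0.16, compared with -0.0011. In that pair the well-counted members stood high in Control 3 (median deviation 0.17) and near their own means in FDM 3 (0.015). With FDM 3 paired by the numbers of the sample sheet instead, the median difference was 0.067, of the opposite sign. The members lower in the FDM eye of both mice numbered 68 of 83, against 30.3% of all genes, 1 was higher in both (Rps27) and 14 were mixed. Large and small subunit members had medians of -0.073 and -0.063 in mouse 1 and of -0.15 and -0.17 in mouse 3.

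**Figure D4:**
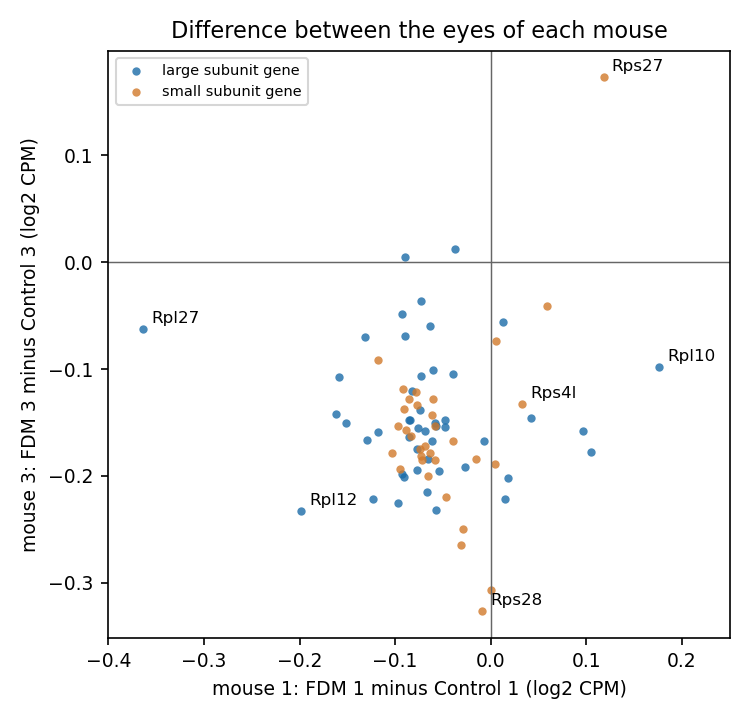
Difference in log2 CPM between the FDM and the Control eye of mouse 1 (horizontal axis) and of mouse 3 (vertical axis) for the 81 well-counted members, coloured by subunit, with lines at 0. Most points lie in the lower left, lower in the FDM eye of both mice, and Rps27 stands alone in the upper right.

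With the mouse as a block in the edgeR fit, 23 members were lower and 0 higher at an unadjusted p of 0.05, while 3.67% of all genes were lower. These were 15 large and 8 small subunit genes with log2 fold changes from -0.22 (Rpl12) to -0.12 (Rps3), and the median over all 83 was -0.11. None passed after adjustment over all genes, the lowest adjusted p being 0.58. The fit rests on the 2 pairs, since Control 2 has no partner in it, and leaves 1 degree of freedom, so its spread was borrowed largely from other genes. It also depends on which eyes are paired: with the numbers of the sample sheet, which join the second FDM library to Control 2, 0 members passed and 41 of 83 lay below 0.

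Among the stalk proteins, which recruit elongation factors, all the named members were lower in both pairs. Rplp0, the base of the stalk, had 173 and 184 CPM in FDM 1 and FDM 3, and 180, 179 and 216 in Control 1, Control 2 and Control 3. FDM 1 was the lowest library, but FDM 3 exceeded 2 of the Control libraries. Its log2 fold change was -0.10 ± 0.11 (SE), and -0.15 in the fit with the mouse as a block (edgeR adjusted p = 0.67). Without Control 3 it was -0.0026.

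Rplp2, its acidic partner, had 91.5 and 99.5 CPM in FDM and 102, 84.6 and 110 in Control. The unpaired Control 2 was its lowest library, and its log2 fold change changed from -0.050 to -0.15 with the block (edgeR adjusted p = 0.65). Rplp1 had 252 and 276 CPM in FDM and 262, 255 and 316 in Control. Its log2 fold change was -0.072 ± 0.12 (SE) and -0.13 with the block (edgeR adjusted p = 0.69).

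Rpl12 had 11.7 and 12.8 CPM in FDM and 13.5, 11.3 and 15.1 in Control. It fell within both pairs, by 0.20 on the log2 scale in mouse 1 and by 0.23 in mouse 3. The edgeR fit gave -0.11 ± 0.14 (SE), or -0.22 once the mouse was a block (adjusted p = 0.62), and Control 2 was again the lowest library. Without Control 3 the unblocked value was -0.0012.

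Of the other large subunit proteins, Rpl24, which forms a bridge to the small subunit, separated the groups. It had 134 and 145 CPM in FDM and 146, 145 and 169 in Control, with FDM 3 and Control 2 within a CPM of each other. Its log2 fold change was -0.14 ± 0.099 (SE), and -0.17 with the block (edgeR adjusted p = 0.58). Rpl21, named here for its values, had 187 and 204 CPM in FDM and 205, 207 and 228 in Control. Both FDM libraries lay below every Control library for 5 of 83 members (Rpl21, Rpl24, Rpl32l, Rpl7l1 and Rps27l), a share near the 6.67% of all genes, and for 0 members they lay above.

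Rpl36a had 34.9 and 39.6 CPM in FDM and 39.0, 40.1 and 43.7 in Control, a log2 fold change of -0.14 ± 0.095 (SE). Rpl39, which lines the exit tunnel of the nascent protein, had 76.8 and 84.5 CPM in FDM and 81.8, 87.8 and 97.2 in Control. FDM 3 lay above Control 1 in both genes, so their groups overlapped. Rpl13a and Rpl3, abundant members, had log2 fold changes of -0.096 and -0.097, and Control 3 was the highest library of both, with 413 and 501 CPM.

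Rpl5 and Rpl11, which bind 5S ribosomal RNA and can hold the p53 regulator Mdm2, had fold changes near 0. Rpl5 had 45.6 CPM in both FDM libraries and 46.8, 44.1 and 45.2 in Control, a log2 fold change of 0.0076 ± 0.077 (SE). For Rpl11 the CPM were 109 and 117 in FDM and 108, 105 and 122 in Control, and the log2 fold change was 0.019 ± 0.097 (SE). Rpl38, known for its role in the translation of Hox mRNAs, and Rpl41, the smallest ribosomal protein, had log2 fold changes of -0.073 and -0.035.

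In the small subunit, Rps6, the substrate of the S6 kinases downstream of mTOR, had 213 and 241 CPM in FDM and 227, 250 and 261 in Control. FDM 3 lay above Control 1, and the log2 fold change was -0.12 ± 0.099 (SE). Rps27a, which is made as a fusion with ubiquitin, had 168 and 183 CPM in FDM and 177, 185 and 208 in Control, and was lower with the block at -0.13 (edgeR adjusted p = 0.68).

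Rpsa, also known as a laminin receptor, had 279 and 305 CPM in FDM and 290, 281 and 339 in Control, a log2 fold change of -0.055. Rps19, the gene most often mutated in Diamond-Blackfan anaemia, had 93.0 and 97.4 CPM in FDM and 94.0, 90.9 and 111 in Control. The fold change of both turned above 0 without Control 3, to 0.039 and 0.049. Rps20 had 88.5 and 93.5 CPM in FDM and 91.4, 94.5 and 109 in Control, a log2 fold change of -0.11.

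Rps27 stood apart from the other small subunit genes. It had 56.0 and 59.1 CPM in FDM and 51.6, 86.3 and 52.4 in Control. The unpaired Control 2 was far above the other 4 libraries, and both FDM eyes lay above their own Control eye, by 0.12 in mouse 1 and 0.17 in mouse 3 on the log2 scale. Its log2 fold change was therefore -0.14 over all libraries, and without Control 2 it was 0.16 and passed the unadjusted threshold.

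Ribosomal protein genes have near-identical copies in the genome, between which the authors' estimated counts are split, so values of single members are uncertain where copies take many reads. The named copies of Rps27, among them Rps27rt, had 36.5 CPM in each FDM library, and 48.3, 12.4 and 60.3 CPM in Control 1 to 3. Together with Rps27 they gave 92.4 and 95.6 CPM in FDM and 99.9, 98.7 and 113 in Control. Control 2 no longer stood apart in the sum, and the FDM eye was lower by 0.11 in mouse 1 and by 0.24 in mouse 3, the opposite of the signs of Rps27 alone.

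**Figure D5:**
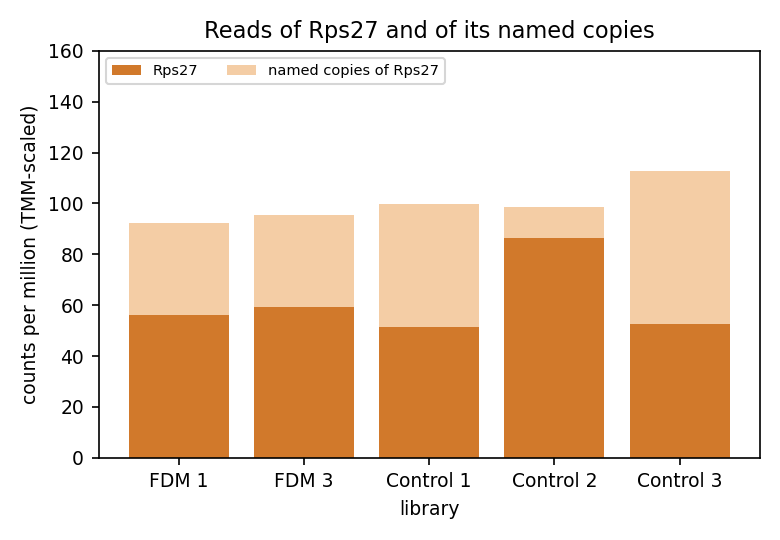
CPM of Rps27 (dark) and of its named copies (light) stacked for each of the 5 libraries, from 0. The split between the gene and its copies differs in Control 2, where Rps27 holds 86.3 of 98.7 CPM, while the sums run from 92.4 to 113.

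The copies took at least 21.0% of the family's reads for 14 members. Their share was 88.3% for Rpl27, 86.2% for Rps12, 62.8% for Rpl10, a protein that joins the large subunit late in its assembly, and 59.3% for Rps23. Rpl10 alone had 52.3 and 47.0 CPM in FDM and 46.3, 49.7 and 50.4 in Control, a log2 fold change of 0.026, and together with its named copies the log2 fold change was -0.11. Rps12 went from 0.028 to -0.086 and Rpl28 from 0.0096 to -0.021 in the same way. These genes were 3 of the 6 members with a fold change above 0, the others being Rpl5, Rpl11 and Rps4l. With copies added to every member, 80 of 83 lay below 0 and the median stayed at -0.075.

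Some paralogs are known for a limited range of tissues. Rpl3l had 4 and 12 counts in FDM and 7, 6 and 20 in Control, with the highest count in Control 3, where muscle markers were also highest (109 CPM summed over 11 genes, against 10.8 to 12.1 in the other libraries). Its FDM 3 count of 12 stood beside a muscle sum of 12.1 CPM, and the part of muscle in its level was not tested. Rpl10l and Rpl39l, paralogs known from the testis, had 1 to 2 and 0 to 2 counts a library and were not tested.

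The paralogs that the retina expressed had values like those of the other members. Rpl22l1 had 37.3 and 42.4 CPM in FDM and 40.9, 42.9 and 44.5 in Control, a log2 fold change of -0.10 ± 0.091 (SE) that was -0.012 without FDM 1. Rpl7l1 had 52.0 and 50.4 CPM in FDM and 54.7, 52.2 and 54.3 in Control, and Rps27l 10.2 and 10.1 CPM in FDM and 10.5, 10.9 and 12.1 in Control. Both genes were lower in the FDM libraries than in every Control library, with log2 fold changes of -0.069 ± 0.078 and -0.14 ± 0.11 (SE). Rps4l, annotated as a pseudogene, had 32.1 and 32.7 CPM in FDM and 31.4, 27.6 and 35.9 in Control.

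The other members annotated as pseudogenes were at the edge of detection. Rpl32l had 8 and 8 counts in FDM and 12, 15 and 16 in Control, a log2 fold change of -0.76 ± 0.37 (SE). Rpl6l had 7 and 8 counts in FDM and 0 in each Control library, at least 2.58-fold higher in FDM when 3 counts a library are taken as the limit that a count of 0 allows. It was not among the genes tested, and in a fit of all genes with at least 1 count it passed the unadjusted threshold (edgeR adjusted p = 1.0). Rps3a3 had 9 and 1 counts in FDM and 0, 7 and 3 in Control, Rps3a2 had 5 counts in Control 3 and 0 in the other libraries, and Rps12l1 had 0 in all 5.

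Other genes of the pathway were read from the same fit. Of 38 translation initiation and elongation factors and associated proteins tested, 0 passed the unadjusted threshold without the block, and with the block 4 were lower (Rack1, Eif3f, Eef1b2 and Tpt1) and 1 was higher (Eif3a), beside the 3.67% of all genes that were lower in that fit. Their median log2 differences were -0.037 in mouse 1 and -0.086 in mouse 3, of the sign of the ribosomal protein genes but smaller. Rack1, a scaffold bound to the small subunit, had 198 and 215 CPM in FDM and 216, 202 and 237 in Control.

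Of 48 ribosome biogenesis genes, 0 passed without and 1 with the block (Nhp2, lower), which is less than that share of all genes, with medians of -0.051 in mouse 1 and -0.0040 in mouse 3. Of 17 genes that control ribosomal protein mRNAs and ribosome synthesis, such as Mtor and Larp1, 0 passed without the block. With it 1 was lower (Cdkn1a), beside the 3.67% of all genes that were lower in that fit. The medians of the 17 genes were -0.062 in mouse 1 and 0.078 in mouse 3, the latter opposite in sign to the ribosomal protein genes. Of the 17, 5 had a log2 fold change below 0. Of 79 mitochondrial ribosomal protein genes, 0 passed without the block and 7 were lower with it, more than the 3.67% of all genes, and the medians were -0.060 in mouse 1 and -0.077 in mouse 3.

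Of the 287 genes named as ribosomal protein pseudogenes, 46 were tested, and 1 was higher (Rpsa-ps2) and 3 lower (Rps6-ps1, Rpl9-ps7 and Rpl17-ps3) without the block, where 1.61% of all genes passed in either direction. With the block 2 were higher and 8 lower, where 1261 of 17432 genes passed in either direction and 3.67% of all genes were lower. The 4 called without the block had at most 32 counts in any library. The pseudogenes together took 0.070% (FDM 1), 0.077% (FDM 3), 0.072% (Control 1 and Control 2) and 0.086% (Control 3) of the counts, the same order of highest and lowest library as the members.

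Library size and composition are the last point. Totals ran from 40599047 to 56534931 counts, and TMM factors from 0.984 to 1.01. The 8 photoreceptor, Müller glia and other retinal markers checked were detected in every library. Their median log2 differences were also below 0, at -0.070 in mouse 1 and -0.092 in mouse 3, and Gnat1, the transducin of rods, passed the unadjusted threshold with the block (edgeR adjusted p = 0.64). The part of this in the members' levels was not tested. Lens markers summed to 2694 CPM in FDM 3 and to 27.5 to 64.1 CPM elsewhere, with Control 1 and FDM 1 each at 0 for 1 of the 18 genes found. RPE markers summed to 610 and 638 CPM in Control 2 and Control 3, against 438 to 461 in the others, blood markers to at most 47.6, and no RPE or blood marker was at 0. Rlbp1, which is also among the retinal markers, held 381 to 422 CPM of each RPE sum. Of the other RPE markers, Rpe65, Lrat, Ttr, Kcnj13, Slc26a4 and Rdh5 were higher in Control 2 than in Control 3. Tyr, Tyrp1, Pmel, Mlana and Best1 were higher in Control 3. Of the muscle markers, 4 were at 0 in FDM 1 and 2 each in FDM 3 and Control 1. Control 3, the highest library for the members, was also the highest for the muscle sum, while the RPE markers were divided between Control 2 and Control 3. The part of muscle or RPE in the members' levels was not tested.

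The members are short genes, with a median transcript length of 704 nucleotides against 2351 for other well-counted protein-coding genes, and short genes moved with the libraries too. Other genes under 500 nucleotides had median differences of -0.058 in mouse 1 and -0.061 in mouse 3 and a median deviation of 0.047 in Control 3, while the 14 members of that length had -0.066, -0.18 and 0.19. Other genes over 5000 nucleotides had 0.066 and 0.043 in the 2 mice. From 500 to 1000 nucleotides, the class of 51 members, the members had -0.065 in mouse 1, -0.16 in mouse 3 and 0.18 in Control 3, and the other genes -0.043, -0.030 and 0.030. From 1000 to 2500 nucleotides, 14 members had -0.079 in mouse 1 and -0.14 in mouse 3, and the other genes -0.036 and -0.017. In each of the 3 classes the members' medians lay further below 0 than those of the other genes in both mice, by little in the shortest class of mouse 1, and these differences were not tested.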

How the data were processed

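Retinal poly-A RNA was sequenced by the authors. Per the labels, Trimmomatic 0.39, Salmon 1.10.1, R 4.3.1 and GRCm38 were used. The authors deposited estimated counts per gene as whole numbers, which split reads among near-identical copies, and a signal of counts normalized in DESeq2 with a factor for each gene and library.

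Of the 33636 genes, the 17432 that exceeded 10 counts in 2 or more libraries entered the edgeR test (version 4.0.16, R 4.3.3, TMM, quasi-likelihood, 3 residual degrees of freedom), FDM against Control, with Benjamini-Hochberg adjustment over all genes. The standard error was taken as log2 fold change over the root of F. CPM were TMM-scaled, and lengths came from GENCODE on GRCm38. The settings also tried were other scalings and filters, DESeq2 1.42.0, a limma 3.58.1 fit of the normalized counts (log2, pseudocount 1 or 0.1), a block for the animal and leaving out single libraries. Scripts were tested on simulated data.

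The samples were paired by their numbers, which were taken to name the animal. Deviations from the group means correlated across genes within mouse 1 (r = 0.258) and mouse 3 (r = 0.125), but FDM 3 correlated slightly more with Control 2 (r = 0.155), the partner its number in the labels would give, so the pairing rests on the study's numbering and not on this check. The deviations of the 2 FDM libraries from their mean are exact opposites, so the values of the 2 mice are not independent of each other. Each library is 1 retina. The p-values of the fits without the block measure the spread between these samples and take the eyes of a mouse as independent. With the block 1 degree of freedom is left, and the spread behind those p-values was borrowed largely from other genes. Members and lists were chosen with earlier results of these data known. Named genes were the largest and smallest fold changes, those with the same sign in both mice, members named for their role, paralogs of limited tissue range, and the highest and lowest levels per length. The limit taken for a count of 0 covers counting error only. The SDs are the spread between libraries, and the standard errors come from the quasi-likelihood fit. A list of further ribosomal protein genes outside the naming rule is not reported here.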

Additional observations from a re-analysis of the deposited data

How the results depend on the processing

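The number of members past the unadjusted threshold was 0 under RLE scaling, library totals, TMM without the members, the stricter filter and DESeq2. It was 1 with all genes of at least 1 count (Rpl6l), where 498 of 24659 genes passed. In limma it was 1 with either pseudocount (Rpl12), beside 300 of all genes with pseudocount 1 and 293 with 0.1. With the replicate block of the mouse it was 23, while 1261 of 17432 genes passed in either direction. Leaving out each Control library gave 0 to 1. The median log2 fold change kept its sign under each of these scalings, filters and tools, at -0.078 to -0.063, and was 0.00060 with a block by the numbers of the labels, which pairs FDM 3 with Control 2. It ran from -0.13 to 0.0076 over the left-out libraries and turned above 0 without Control 3. The difference in summed share ran from -0.099 to 0.0089 percentage points in the same way, and paired by the labels' numbers the mouse 3 median was 0.067. Where 1 FDM library was left, it was assumed to vary like the others.

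For single genes with the replicate block, Rps27 turned to 0.15, Rpl28 to -0.052, Rpl11 to -0.022, Rps4l to -0.052 and Rpl5 to -0.012. With the label numbers, Rpl3l turned to 0.34, Rplp2 to 0.041, Rplp1 to 0.030, Rpsa to 0.031, Rps19 to 0.043, Rpl38 to 0.013 and Rpl41 to 0.058. In limma Rpl28 was -0.049 and Rpl11 -0.0031 with either pseudocount. Among members that kept their sign there, Rps20 went from -0.11 to -0.21 and Rpl22l1 from -0.10 to -0.021. With named copies added, an alternative chosen after seeing the data, Rpl28 was -0.021, Rpl10 -0.11 and Rps12 -0.086.

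With each library left out, the log2 fold change ran from -0.053 to 0.10 for Rpl10, -0.035 to 0.094 for Rpl11, -0.15 to 0.0030 for Rpl13a, -0.045 to 0.098 for Rpl28, -0.16 to 0.021 for Rpl38, -1.30 to 0.35 for Rpl3l, -0.082 to 0.065 for Rpl41, -0.0018 to 0.031 for Rpl5, -0.14 to 0.037 for Rplp1, -0.14 to 0.043 for Rplp2, -0.095 to 0.049 for Rps19, -0.27 to 0.16 for Rps27, -0.044 to 0.14 for Rps4l and -0.12 to 0.039 for Rpsa. Of the named members whose sign held, those moving by over 1.5 times ran from -0.21 to -0.0012 for Rpl12, -0.15 to -0.0026 for Rplp0, -0.15 to -0.018 for Rpl3, -0.16 to -0.025 for Rps20, -0.18 to -0.036 for Rps27a, -0.19 to -0.058 for Rpl24, -0.21 to -0.066 for Rpl39 and -0.18 to -0.067 for Rps27l, each nearest 0 without Control 3, from -0.20 to -0.012 for Rpl22l1, -0.21 to -0.032 for Rps6 and -0.23 to -0.048 for Rpl36a, each nearest 0 without FDM 1, and from 0.0010 to 0.084 for Rps12. The causes were not tested. With a standard error near 0.10 on the log2 scale, differences of the size seen here could not be told from 0 without the block. With the block no member passed adjustment (lowest edgeR adjusted p = 0.58), and the result changed with the pairing used.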
